A study of Mus musculus with 4 samples.

Results

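Late distal convoluted tubule (DCT) cells were followed in single-cell RNA-Seq libraries of mouse renal cortex. The cells were chosen by their own counts, scaled to unique molecular identifiers (UMIs) per 10000 UMIs of the cell (CP10k): at least 5 for Slc12a3, at least 10 for S100g, below 40 for Slc12a1 and Umod together and below 5 for Slc34a1. Of 48085 deposited cell barcodes, 32407 had at least 1000 genes and at most 50% mitochondrial UMIs, and 1138 of these passed the gate. Levels of these 5 genes are therefore the rule itself and are given below without a test. Late DCT cells were set beside 1792 early DCT cells, which passed the same gate with S100g below 10, and beside 1649 S100g cells low in Slc12a3, on the connecting tubule side, with Slc12a3 below 5 and Atp6v1g3 below 5.

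Each of 4 conditions had 1 library, made with the 10x Genomics 3′ chemistry from cortex of male mice, tissue of 2 or 3 mice being pooled before digestion. Tfeb fl/fl and Tfeb fl/fl KAP mice were taken young (6 weeks) or aged (24 months), in the order young Tfeb fl/fl, young KAP, then both aged groups likewise, and values in groups of 4 keep this order. All 4 groups carried the floxed Tfeb alleles, and the KAP groups also carried a Cre transgene under the kidney androgen-regulated protein promoter, which acts in proximal tubules, so that DCT cells were not its intended target. With 1 library per condition no difference between conditions could be tested: ratios are given with exact binomial 95% intervals of the summed counts, which cover counting error only, and variation between mice cannot be told apart from age or genotype.

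The DCT reabsorbs sodium and chloride through the thiazide-sensitive cotransporter encoded by Slc12a3, under control of the WNK kinases. Its late stretch adds the machinery of active calcium transport: an apical channel (Trpv5), calcium-binding shuttles (Calb1 and S100g), and a basolateral exchanger (Slc8a1) and pump (Atp2b4), all under control of parathyroid hormone and vitamin D. It also begins to carry the aldosterone-sensitive sodium channel that dominates the connecting tubule downstream, whereas parvalbumin (Pvalb) and pro-epidermal growth factor (Egf) mark the early stretch.

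Promoters of 4 genes are shown: S100g and Slc12a3 define the cells, Klk1 ranked first for its difference from early DCT cells among genes with a mean of at least 50 CPM (counts per 1000000 UMIs), and Pvalb marks the early side and differed in level between the libraries. Each run is RefSeq sequence of mouse build GRCm38.p6, read 5′ to 3′ on the strand of the gene, from 250 bases before to 50 bases after an annotated start. The RefSeq gene of Slc12a3 began at chr8:94329109, so that its window holds more than 50 bases after that point. Capitals mark matches on either strand to AGGTCA, the core hexamer bound by nuclear receptors such as the vitamin D receptor, or to GCCNNNGGC, the core motif of AP-2 factors, and no matches overlapped in these windows. The S100g window is chrX:162964550-162964849 (minus strand), the Klk1 window chr7:44225110-44225409 (plus strand), the Slc12a3 window chr8:94328958-94329257 (plus strand) and the Pvalb window, at the first of its 2 listed starts, chr15:78206351-78206650 (minus strand).
S100g: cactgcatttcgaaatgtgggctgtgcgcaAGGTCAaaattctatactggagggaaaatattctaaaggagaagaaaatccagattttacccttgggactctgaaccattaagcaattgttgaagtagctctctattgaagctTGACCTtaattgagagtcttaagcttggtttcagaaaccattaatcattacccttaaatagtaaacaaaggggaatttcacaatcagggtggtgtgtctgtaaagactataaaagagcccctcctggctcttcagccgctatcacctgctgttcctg
Klk1: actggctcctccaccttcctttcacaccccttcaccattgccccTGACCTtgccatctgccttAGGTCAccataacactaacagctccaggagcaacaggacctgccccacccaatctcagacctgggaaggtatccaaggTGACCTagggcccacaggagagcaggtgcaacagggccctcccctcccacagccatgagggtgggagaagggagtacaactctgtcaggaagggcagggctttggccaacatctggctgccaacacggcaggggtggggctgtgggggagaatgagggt
Slc12a3: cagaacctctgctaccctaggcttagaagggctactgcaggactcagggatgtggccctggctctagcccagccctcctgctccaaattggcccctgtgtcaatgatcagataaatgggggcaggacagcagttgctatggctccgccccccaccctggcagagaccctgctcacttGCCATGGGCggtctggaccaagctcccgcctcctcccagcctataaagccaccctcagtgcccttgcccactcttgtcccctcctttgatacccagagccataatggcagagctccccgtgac
Pvalb: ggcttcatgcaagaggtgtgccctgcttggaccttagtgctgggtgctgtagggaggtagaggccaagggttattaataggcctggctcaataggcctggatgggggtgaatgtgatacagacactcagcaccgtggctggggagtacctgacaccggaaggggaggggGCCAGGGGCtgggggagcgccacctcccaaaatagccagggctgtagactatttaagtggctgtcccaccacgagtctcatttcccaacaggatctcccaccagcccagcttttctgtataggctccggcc
The hexamer began at bases 31 and 144 of the S100g window and at bases 45, 64 and 142 of the Klk1 window, and the AP-2 motif at base 178 of the Slc12a3 window and base 170 of the Pvalb window. Of 32851 promoter windows of the same length, 16.3% held the hexamer and 16.6% the AP-2 motif, so that a match is common. Matches describe the sequence only, and binding was not tested. The windows of Trpv5, Slc8a1 and Egf, not printed, held neither motif.

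The late DCT cells numbered 414, 169, 248 and 307 and held 6268478, 3161232, 4384302 and 5378783 UMIs, which set the counting error of every value below. A late DCT cell carried a median of 15003, 18695, 17313.5 and 17068 UMIs, and the median mitochondrial share was 29.3, 31.6, 24.3 and 28.3%. No late DCT barcode was shared between libraries, whereas 10 to 27 kept barcodes were shared by each pair of libraries. Scrublet scores marked 22, 7, 11 and 12 of the late DCT cells as likely doublets, and these were kept.

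A pair of libraries stood apart. The deposited counts had been corrected for background RNA, and in late DCT cells the correction had set 2.83, 13.2, 8.98 and 12.5% of gene entries to 0, least in the young Tfeb fl/fl library. In that library a Calb1 UMI was left in 10.8% of Slc34a1 cells of the proximal tubule, which should lack it, against 0.770, 0.662 and 1.07% in the others, at median depths of 17021, 15979, 21383 and 17786.5 UMIs. Of its late DCT cells, 32.9% lay between 10 and 100 CP10k of S100g, against 13.0, 23.4 and 21.2%. In the young Tfeb fl/fl KAP library, the late gate instead carried transcripts of principal cells, with Aqp2 at 257 UMIs per 1000000 UMIs of the summed cells (CPM) against 61.4, 59.99 and 56.1 CPM in the other libraries. These UMIs lay mostly in few cells: the 13 cells of that library at 5 to 10 CP10k of Slc12a3 had Aqp2 at 1932 CPM, and the 42 cells at 50 to 100 CP10k had it at 22.3 CPM. An Aqp2 UMI was found in 10.9, 36.1, 17.3 and 28.0% of late DCT cells and in 4.49, 30.1, 16.4 and 22.1% of Slc34a1 cells, which should lack it. The main comparisons were also made over the 278, 147, 190 and 242 cells with at least 100 CP10k of S100g, a limit chosen after seeing the data.

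The label was checked against Trpv5 and Calb1, which the gate did not use. Trpv5 stood at 98.6, 92.4, 94.0 and 92.6 CPM in late DCT cells, at 0.426, 1.79, 2.33 and 2.03 CPM in early DCT cells and at 107, 120, 127 and 96.2 CPM in S100g cells low in Slc12a3. A Trpv5 UMI was found in 52.7, 57.4, 60.1 and 59.9% of late DCT cells and in 0.465, 1.97, 2.45 and 1.65% of early DCT cells, the latter close to the 1.49, 0.770, 1.25 and 1.42% of Slc34a1 cells. After thinning to 2000 UMIs per cell, which left 412, 168, 248 and 307 late and 424, 404, 406 and 543 early DCT cells, the shares were 15.3, 13.1, 14.5 and 15.3% in late and 0, 0.248, 0.985 and 0.368% in early DCT cells. Calb1 stood at 12321, 11985, 9910 and 9196 CPM in late and at 1655, 2019, 1358 and 1699 CPM in early DCT cells. Over the whole gate both markers were thus higher than in early DCT cells in every library, and the cells kept their name. Trpv5 did not separate them from S100g cells low in Slc12a3. Gated cells below 100 CP10k of S100g, described below, had much less of it.

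**Figure D1:**
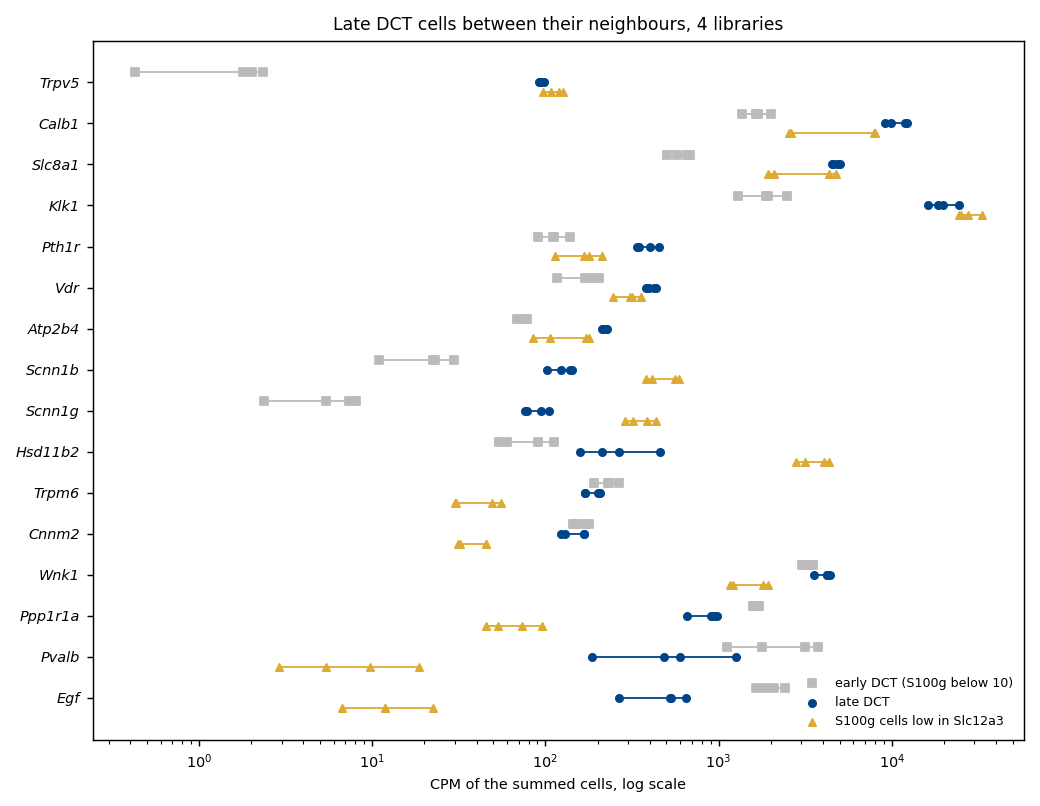
Level of 16 genes in CPM (log axis) in early DCT cells (squares), late DCT cells (circles) and S100g cells low in Slc12a3 (triangles), 1 point for each of 4 libraries, with lines from the lowest to the highest library. Late DCT cells sit near the connecting tubule side for Trpv5 and Klk1, with early DCT cells for Trpm6 and Wnk1, and between both for Scnn1b, Scnn1g, Hsd11b2, Pvalb and Egf.

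Cells inside the gate were not uniform. Along the S100g level, Trpv5, Slc8a1 and Calb1 were higher in cells with more S100g. In cells at 10 to 100 CP10k of S100g, Trpv5 was at 7.90, 9.03, 9.63 and 20.7 CPM, and in cells at 100 or more at 125, 102, 114 and 108 CPM. Slc8a1, the sodium-calcium exchanger, stood at 897, 894, 1562 and 1747 CPM in the former and at 5637, 5258, 5219 and 5713 CPM in the latter. Pvalb ran the other way, with 3048, 954, 1436 and 556 CPM below 100 CP10k of S100g and 758, 426, 408 and 105 CPM above it. Every library showed both directions. The pump gene Atp2b1 did not follow the calcium genes named, with 131, 72.3, 159 and 147 CPM below 100 CP10k of S100g and 112, 109.6, 129 and 99.9 CPM above it. The cells below 100 CP10k were not alike in all libraries, however: in young KAP mice they carried Hsd11b2 at 1051 and Aqp2 at 993 CPM, with Slc12a3 at 3504 and Klk1 at 13014 CPM, where early DCT cells of that library had Slc12a3 at 6406 and Klk1 at 2491 CPM. Just inside the S100g threshold (10 to 20 CP10k; 48, 5, 17 and 11 cells) Trpv5 stood at 5.83, 0, 0 and 0 CPM, and just outside it (5 to 10 CP10k; 52, 10, 18 and 16 cells) it was at 0 in all 4 libraries. Just inside the Slc12a3 threshold (5 to 10 CP10k; 27, 13, 12 and 21 cells) Hsd11b2, an enzyme of aldosterone target cells, stood at 262, 2447, 1109 and 1268 CPM, and just outside it (2.5 to 5 CP10k; 19, 8, 14 and 15 cells) at 1234, 723, 1799 and 1295 CPM. Hsd11b2 was not ordered across the Slc12a3 threshold in the same way in all libraries.

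**Figure D2:**
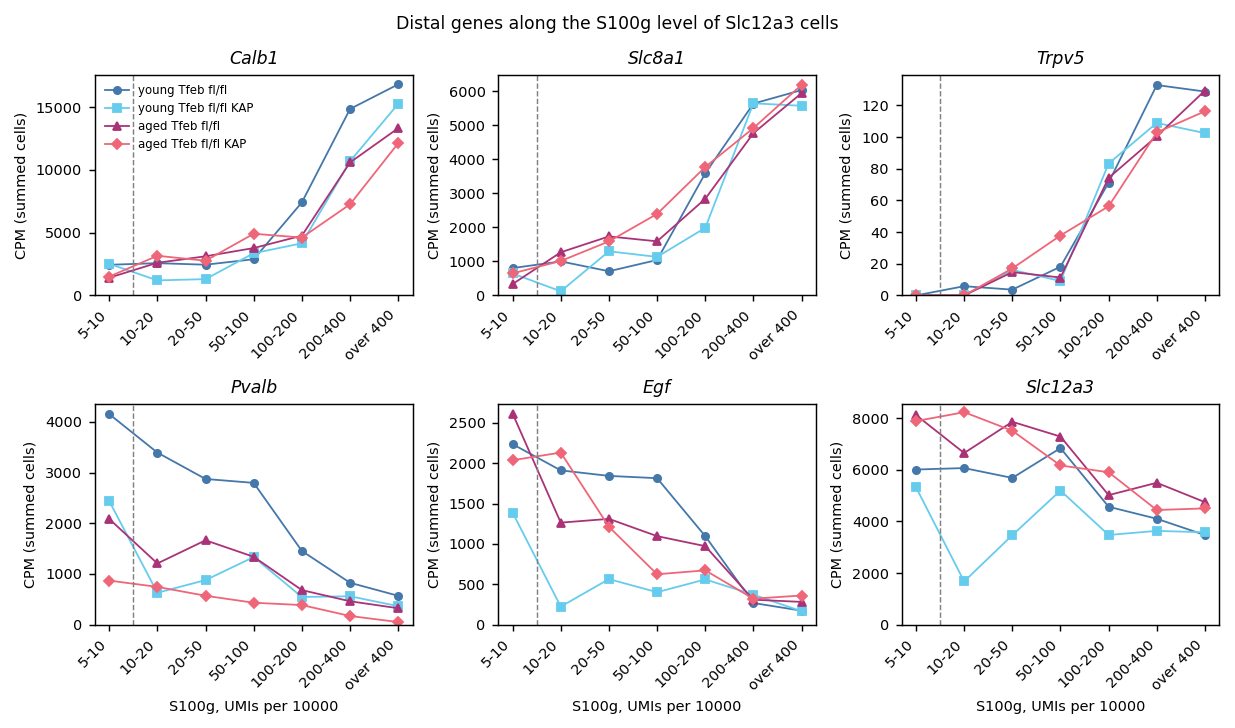
Level in CPM of the summed cells (vertical axes, from 0) of 6 genes against the S100g level of the cells in CP10k (horizontal axes), 1 line per library, with the threshold of the gate dashed. In all 4 libraries Calb1, Slc8a1 and Trpv5 are higher in cells at 100 CP10k of S100g or more than in cells at 10 to 100, whereas Pvalb and Egf are lower.

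Calcium genes set late apart from early DCT cells. Of 12 tested members of a list of 20 calcium transport genes, S100g left aside, 7 were at least 2-fold higher in late than in early DCT cells in all 4 libraries (Trpv5, Calb1, Slc8a1, Klk1, Atp2b4, Pth1r and Vdr) and none was 2-fold lower. Against this stood 35 of 5207 genes (0.672%) that were 2-fold higher in all 4 libraries and 58 (1.11%) that were 2-fold lower, and the list median was 1.44 on the log2 scale beside -0.17 over all genes. Trpv5 was tested only through its level in late DCT cells, and had to differ. Because the gate split the same cells by S100g, these are descriptions with no test.

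Among the members by role, the apical channel gene Trpv5 has been given above, and its close relative Trpv6 was near the limit of detection, with 7.02, 8.86, 6.16 and 8.18 CPM. Klk1, tissue kallikrein, a protease secreted by this segment, stood at 16274, 24565, 18445 and 19813 CPM in late DCT cells against 1298, 2491, 1920 and 1881 CPM in early ones, log2 ratios of 3.65, 3.30, 3.26 and 3.40. Slc8a1 stood at 4584, 4799, 4526 and 5001 CPM against 574, 654, 506 and 687 CPM in early DCT cells. Both genes headed the ranking of late against early DCT cells, which largely set that every late library was above every early one. Of the plasma membrane calcium pumps, Atp2b4 was higher in late DCT cells (225, 214, 226 and 216 CPM against 68.2, 74.6, 78.6 and 74.9), Atp2b1 was slightly lower (log2 ratios -0.39, -0.40, -0.38 and -0.49), Atp2b2 stayed below 20 CPM, and Atp2b3 had no UMI. Among the receptors, Pth1r, the parathyroid hormone receptor, stood at 347, 450, 403 and 339 CPM against 90.7, 112, 139 and 111 CPM, and Vdr, the vitamin D receptor, at 383, 426, 434 and 398 CPM against 116, 170, 205 and 189 CPM. The calcium-sensing receptor Casr stayed at 9.09 to 13.9 CPM, and the vitamin D enzymes Cyp24a1 and Cyp27b1 below 1 CPM. The calmodulin genes Calm2 and Calm3 and the adaptor S100a10 had log2 ratios between -0.29 and 0.38, and its partner Anxa2 stayed at or below 10.1 CPM. The 2-fold differences from early DCT cells thus lay in 1 channel, 1 buffer, the exchanger, 1 pump, 1 secreted protease and 2 hormone receptors, while Calm2 and Calm3 were at like levels in both.

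Magnesium genes had a different order. Trpm6, the apical magnesium channel, was carried by late DCT cells at 170, 169, 207 and 200 CPM and by early ones at 192, 234, 229 and 265 CPM, but by S100g cells low in Slc12a3 at only 49.1, 55.3, 30.1 and 30.3 CPM. Its partner Trpm7 was lower in late than early DCT cells (log2 ratios -1.18, -2.02, -1.38 and -1.55), as was Egf, whose product stimulates Trpm6 (-1.89, -2.98, -1.82 and -1.64). Of 10 tested members, 2 (Trpm7 and Egf) were 2-fold lower and 1 (Arl15) 2-fold higher in every library, beside 58 and 35 of 5207 genes. Arl15, a regulator of magnesium transport, stood at 41.0, 51.9, 40.8 and 43.7 CPM against 5.96, 6.75, 6.09 and 5.81 CPM in early DCT cells, so that it was tested only through its level in late DCT cells. Cnnm2, a basolateral magnesium transport protein, stood at 167, 123, 167 and 129 CPM, close to early DCT cells, and Kcna1, a potassium channel described in this segment, had no UMI. Slc41a1, Pcbd1, Ptp4a2 and Fxyd2 were within 2-fold of early DCT cells in each library, and Cnnm4, Slc41a3, Egfr, Ptp4a1 and Ptp4a3 were too low to be tested. Against the connecting tubule side, Trpm6, Trpm7, Cnnm2 and Egf were 2-fold higher in late DCT cells in all 4 libraries, beside 54 of 5380 genes (1%) higher and 153 (2.84%) lower.

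Of 18 tested members of a list of 20 sodium chloride transport genes, Slc12a3 left aside, none was 2-fold higher or lower than in early DCT cells in all 4 libraries, which is near the share over all genes (0.672% and 1.11%). Wnk1, the kinase upstream of the cotransporter, stood at 4209, 3547, 4250 and 4399 CPM in late and at 3238, 3036, 3182 and 3522 CPM in early DCT cells. The kinase genes Wnk4 and Stk39 and the inhibitor Ppp1r1a were lower than in early DCT cells, as was Fxyd2, with log2 ratios from -1.38 to -0.31, and Oxsr1, Cul3, Klhl3, Cab39, Kcnj10, Bsnd, Slc12a7 and Atp1b1 lay between -0.61 and 0.14. Kcnj16, which encodes a basolateral potassium channel subunit, and the scaffold gene Cab39l were higher, with ratios from 0.30 to 0.66. Wnk3 was too low to be tested. Against the connecting tubule side, 4 of the 18, among them Klhl3 and Ppp1r1a, were 2-fold higher in all 4 libraries, beside 54 of 5380 genes (1%).

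Of the aldosterone-responsive genes, 3 of 13 tested (Scnn1b, Scnn1g and Klk1) were 2-fold higher than in early DCT cells in all 4 libraries, beside 35 of 5207 genes, and 4 of 12 (Scnn1b, Scnn1g, Hsd11b2 and Sgk1) were 2-fold lower than on the connecting tubule side, beside 153 of 5380. Scnn1g was tested against early DCT cells only through its level in late ones. Scnn1b and Scnn1g, subunits of the epithelial sodium channel, stood at 102.6, 122, 143 and 138 CPM and at 94.9, 105, 77.8 and 76.0 CPM. In early DCT cells Scnn1b was at 22.4, 10.9, 23.1 and 29.6 CPM and Scnn1g at 8.09, 2.38, 7.34 and 5.37 CPM, and in S100g cells low in Slc12a3 Scnn1b was at 379, 415, 562 and 594 CPM and Scnn1g at 320, 290, 437 and 388 CPM. The ranges of the 3 cell groups over the libraries did not overlap for either gene. How many of all genes had such ranges was not counted. Both genes were tested or ranked against early DCT cells through their late level, so that this is a description only. The alpha subunit gene Scnn1a (211, 267, 282 and 262 CPM) and Kcnj1, a potassium secretory channel (593, 586, 768 and 681 CPM), had log2 ratios between -0.44 and 0.33 against both neighbours. Hsd11b2, which protects the mineralocorticoid receptor from glucocorticoids, stood at 158, 456, 213 and 265 CPM, against 2799, 3144, 4316 and 4044 CPM on the connecting tubule side. The receptor gene Nr3c2 stood at 21.8 to 37.9 CPM. Sgk1, an aldosterone-induced kinase, was lower than on the connecting tubule side in every library, with log2 ratios from -3.29 to -1.72, and Nr3c1, Nedd4, Nedd4l and Prss8 had log2 ratios between -1.21 and 0.91 against either neighbour, while Tsc22d3, Per1 and the Kcnma1 channel genes were too low to be tested.

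Ranked by the weakest library among genes with a mean of at least 50 CPM, which leaves out Trpv5, Scnn1g and Arl15, those higher in late than early DCT cells beyond the calcium list were Tbx2, Scnn1b, Hhatl, Spp1, Iqgap2, Ltc4s and Clu. Tbx2, a T-box repressor, stood at 87.1, 96.5, 87.4 and 81.2 CPM against 15.8, 12.3, 12.2 and 13.6 CPM. It was thus tested only through its level in late DCT cells, and had to differ. Scnn1b, also below 50 CPM in early DCT cells, was ranked only through its level in late ones. Spp1, osteopontin, a secreted protein that binds calcium crystals, stood at 7715, 6986, 5601 and 5516 CPM against 1978, 1741, 1906 and 1687 CPM. Those lower were Wfdc15b, Pigr, Ckb, Gpx6, Egf, Cdkn1a, Pvalb, Ptgfr, Upp1, Ifitm3, Ccn1 and Atp4a, and Ckb, a creatine kinase, stood at 151, 56.6, 51.8 and 61.0 CPM against 646, 649, 478 and 521 CPM. Sfrp1, a secreted Wnt inhibitor, was shared by both DCT groups (983, 955, 1166 and 1076 CPM in late, 904, 1033, 923 and 911 CPM in early cells) and was at 45.004, 56.2, 27.3 and 17.5 CPM on the connecting tubule side. Kcne1 and Avpr2, a potassium channel subunit and the vasopressin receptor, were lower than there in every library, with log2 ratios of -3.20 or below and -2.90 or below.

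Mitochondrial genes split by genome. Of 77 nuclear subunits of oxidative phosphorylation, 75 were lower in late than in early DCT cells in all 4 libraries and none was 2-fold lower, with a list median of -0.36 beside -0.17 over all genes, of which 2748 of 5207 were lower in all 4 libraries and 58 (1.11%) 2-fold lower. Of 13 subunits encoded in the mitochondrial genome, 11 were higher in all 4 libraries, beside 525 of 5207 genes, with a median of 0.15. The 13 subunits summed to 293203, 292206, 241072 and 271229 CPM in late and to 255637, 246434, 223549 and 235075 CPM in early DCT cells. These sums nearly restate the mitochondrial share, whose median in early DCT cells was 26.9, 25.6, 22.2 and 22.8%. This share was below that of late DCT cells in each library, and its part in the nuclear ratios was not tested.

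Late DCT cells made up 3.76% (exact 95% interval 3.41 to 4.13), 2.00% (1.71 to 2.32), 4.14% (3.65 to 4.68) and 4.43% (3.96 to 4.94) of kept cells. The young Tfeb fl/fl KAP library was lowest, and its interval did not meet the others. As a share of the 3 distal groups together, late DCT cells were 26.4, 16.5, 30.3 and 26.3%. With S100g at 100 CP10k or more they were 2.52, 1.74, 3.17 and 3.49% of kept cells, with young Tfeb fl/fl KAP again lowest. How tissue was cut and digested also sets such shares, and with 1 library each this cannot be told apart from age or genotype.

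Tfeb itself, the gene deleted in proximal tubules of KAP mice, was low in late DCT cells: 97, 55, 99 and 100 UMIs, or 15.5, 17.4, 22.6 and 18.6 CPM. The KAP library stood 0.17 (-0.34 to 0.66) above its control on the log2 scale in young and 0.28 below it (log2 ratio -0.28, -0.70 to 0.14) in aged mice, both intervals including 0. The 3′ reads need not cover the deleted exons, so this level does not check the deletion. Lysosomal genes and other targets of the MiT/TFE family, to which TFEB belongs, had medians of -0.02 in young and -0.16 in aged KAP mice against controls, beside -0.06 and -0.11 over all genes, and none of the 41 and 42 tested members was 2-fold higher or lower, which is near the share over all genes (0.488% higher and 0.297% lower in young, 0% and 0.567% in aged mice).

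The age comparison asked which genes differed between 6 weeks and 24 months in each genotype, and the 2 pairs share no library. In Tfeb fl/fl mice 60 of 5039 genes (1.19%) were at least 2-fold higher with age and 18 (0.357%) at least 2-fold lower, and in Tfeb fl/fl KAP mice 30 of 4814 (0.623%) were higher and 42 (0.872%) lower. Among 4727 genes tested in both pairs, 11 were higher in both (21.2% of the 52 higher in Tfeb fl/fl and 40.7% of the 27 higher in KAP mice) and 7 lower in both (58.3% of 12 and 20% of 35). Over all genes the median log2 ratio was 0.15 and 0.08. It was -0.06 and -0.05 with median-of-ratios scaling, so that ratios near those sizes carry no direction. With that scaling 24 genes were 2-fold higher and 35 lower with age in Tfeb fl/fl mice, so that the excess of higher genes turned round.

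By the ranking of the weaker ratio, the genes higher with age in both pairs included Lhx1, Id3, Hoxb8 and Tfap2b, of which Tfap2b was short of 2-fold. Lhx1, a homeobox factor of the developing nephron, stood at 95.6 and 84.5 CPM in the young and at 226 and 200 CPM in the aged libraries, log2 ratios of 1.25 (1.10 to 1.39) and 1.25 (1.05 to 1.45). Hoxb8, a homeobox factor of body patterning, stood at 58.7 and 55.0 CPM in young and at 123 and 112 CPM in aged cells. Tfap2b, an AP-2 factor of the distal nephron, stood at 125 and 118 against 237 and 219 CPM, log2 ratios of 0.93 (0.79 to 1.06) and 0.89 (0.72 to 1.06). For each of these genes both aged libraries were above both young ones, with Poisson intervals that did not meet. The ranking had picked them by the same values, so this order was largely set in advance and is a description only. Id3, an inhibitor of basic helix-loop-helix factors, stood at 57.1 and 27.8 against 132 and 139 CPM, although the correction had set it to 0 in 4.11, 26.0, 11.3 and 11.1% of the cells.

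Of 24 distal transcription factors on a list, 18 and 20 could be tested. The list was chosen with earlier results of these data known, so its counts are a description and no independent support. In Tfeb fl/fl mice 17 of 18 were higher with age (median 0.46), in KAP mice 15 of 20 (median 0.42), beside 3417 of 5039 and 3013 of 4814 genes in all, so that the count in KAP mice was near that of all genes. In each pair 1 member, Lhx1, was past 2-fold, beside 60 of 5039 (1.19%) and 30 of 4814 genes (0.623%) 2-fold higher in all. Emx1 (log2 ratios 0.68 and 0.59), Pou3f3 (0.64 and 0.56), Nfib (0.58 and 0.56) and Sall3 (0.56 and 0.62) were higher in both pairs, and Emx2 was too low to be tested. The other genes higher with age in both pairs by the ranking rule were Gm42418, Atp4a, Cavin2, Scg5, Gas1, Uroc1, Tox3 and Klhl3. Atp4a, a proton pump subunit, stood at 34.0 and 31.0 against 72.3 and 76.8 CPM. Klhl3, the adaptor that targets WNK kinases for degradation, stood at 321 and 266 against 562 and 465 CPM (0.81 and 0.80).

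The 12 genes ranked lowest with age by the weaker ratio, not all of them past 2-fold, were Cryab, Pvalb, 1110019B22Rik, Timm8a1, Sostdc1, Tubb2a, Scd2, Ifi30, Glod5, Fdps, Tomm5 and Pdcl3. Sostdc1, a secreted antagonist of BMP and Wnt ligands, stood at 557 and 451 CPM in young and at 261 and 273 CPM in aged cells, log2 ratios of -1.09 (-1.19 to -0.996) and -0.72 (-0.83 to -0.61). Scd2, a fatty acid desaturase, stood at 577 and 532 against 365 and 285 CPM, and Cryab, a small heat shock protein, at 70.5 and 105 against 31.7 and 36.8 CPM. Both aged libraries were below both young ones for all 3 genes, which the ranking had picked by the same values. Pvalb stood at 1267 and 482 against 603 and 186 CPM, log2 ratios of -1.07 and -1.37, and over the cells with S100g at 100 CP10k or more of -0.89 and -2.02. Over all late DCT cells young Tfeb fl/fl KAP (482 CPM) was below aged Tfeb fl/fl (603 CPM), so that age did not order the 4 libraries. In the cells with S100g at 100 CP10k or more it did, with Pvalb at 758 and 426 CPM in young and at 408 and 105 CPM in aged mice.

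**Figure D3:**
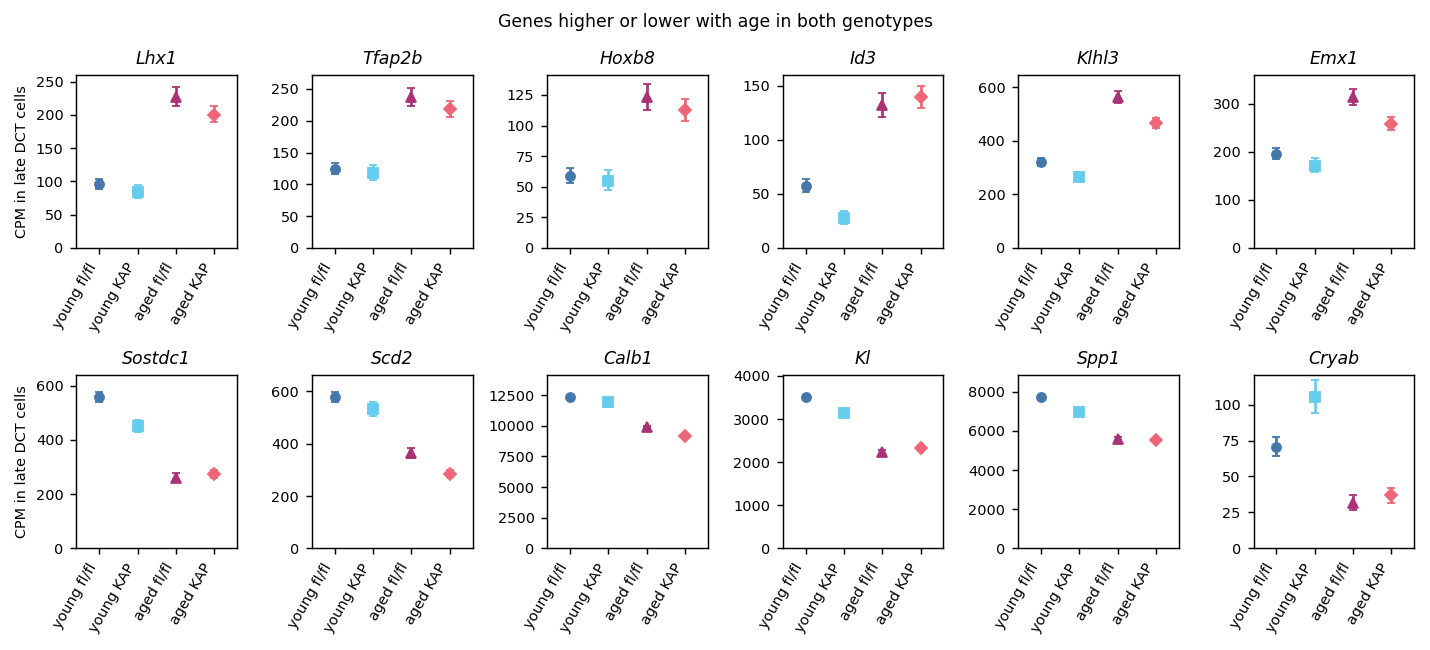
Level of 12 genes in late DCT cells in CPM (vertical axes, from 0), 1 point per library, with exact Poisson 95% intervals that cover counting error only. Both aged libraries lie above both young ones for Lhx1, Tfap2b, Hoxb8, Id3, Klhl3 and Emx1 and below them for Sostdc1, Scd2, Calb1, Kl, Spp1 and Cryab. Lhx1, Tfap2b, Hoxb8, Id3, Klhl3, Sostdc1, Scd2 and Cryab were picked by the ranking of the same values, which largely set their order.

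The calcium list had age medians of 0.09 in Tfeb fl/fl and -0.03 in KAP mice, beside 0.15 and 0.08 over all genes. None of its 12 tested members was past 2-fold, which is near the share over all genes (1.19% higher and 0.357% lower in Tfeb fl/fl, 0.623% and 0.872% in KAP mice). Trpv5 had log2 ratios of -0.07 (-0.25 to 0.11) and 0.00 (-0.21 to 0.22) and Slc8a1 of -0.02 and 0.06. Calb1 had larger ratios, -0.31 and -0.38, short of 2-fold lower. In S100g cells low in Slc12a3, Calb1 went from 7956 and 7910 CPM in young to 2605 and 2537 CPM in aged mice (-1.61 and -1.64) and Slc8a1 from 4364 and 4744 to 1923 and 2102 CPM (-1.18 and -1.17). The 2-fold mark was thus passed on the connecting tubule side and not over all late DCT cells, and this difference was not tested. After thinning, an Aqp2 UMI was found in 62.3 and 65.5% of young and 72.2 and 78.0% of aged cells on that side. A Klk1 UMI was found in 76.9 and 68.6% against 59.9 and 50.3%. Inside the late gate, cells at 5 to 10 CP10k of Slc12a3 had Calb1 at 11234 and 7163 CPM in young and at 2991 and 3672 CPM in aged mice. Their Slc8a1 was at 5779 and 3361 against 2869 and 3909 CPM. Kl, klotho, the coreceptor for FGF23, stood at 3501 and 3143 CPM in young and at 2236 and 2336 CPM in aged late DCT cells (-0.65 and -0.43), and had age ratios of -0.69 and -0.76 in early DCT cells and of -0.94 and -0.94 on the connecting tubule side. Spp1 had ratios of -0.46 and -0.34 in late DCT cells. Lhx1 and Tfap2b were higher with age in both neighbours as well: Lhx1 had ratios of 0.75 and 1.01 in early DCT cells and of 1.28 and 0.77 on the connecting tubule side, and Tfap2b of 0.94 and 0.61 and of 1.12 and 0.95. Klhl3 had ratios of 0.80 and 0.62 in early DCT cells but of -0.22 and -0.31 on the connecting tubule side, and Cryab of -1.35 and -1.997 in early DCT cells but of 0.07 and -0.09 there. Late DCT cells thus stood with early DCT cells for Klhl3 and Cryab, which was not tested.

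Immediate early genes, which respond within minutes to stress and to tissue handling, were highest in the aged Tfeb fl/fl library. Of 24 tested members of a list of 28 immediate early and heat shock genes, all 24 were higher with age in Tfeb fl/fl mice and 8 were past 2-fold (median 0.89), whereas in KAP mice 7 were higher and 17 lower (median -0.23), beside 3417 of 5039 and 3013 of 4814 genes higher in all. Past 2-fold higher with age in Tfeb fl/fl mice were 60 of 5039 genes (1.19%). In aged mice 23 of the 24 were lower in KAP than in Tfeb fl/fl cells (median -0.75), 8 of them past 2-fold. Beside this, 3711 of 5113 genes were lower in all, and 29 (0.567%) were past 2-fold lower. Fos stood at 1138, 1279, 2261 and 1106 CPM, Jun at 318, 486, 790 and 500 CPM, and Nr4a1 at 42.1, 78.8, 143 and 65.8 CPM. Atf3, a stress-induced factor, stood at 60.5, 171, 187 and 71.2 CPM, high in young KAP and aged Tfeb fl/fl and low in the others. Early DCT cells had Fos at 1572, 1519, 2448 and 1303 CPM, so that the same library was highest there. The part of handling of that library in these values was not tested. Of the 60 genes 2-fold higher with age in Tfeb fl/fl mice, 8 were thus of this list.

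The genotype comparison asked what differed in late DCT cells of KAP mice. In young mice 23 of 4714 genes (0.488%) were at least 2-fold higher in KAP and 14 (0.297%) at least 2-fold lower, and in aged mice 0 of 5113 (0%) were higher and 29 (0.567%) lower. Among 4590 genes tested at both ages, 0 were higher at both and 3 were lower at both (Gm42418, Pvalb and AY036118, the last too low for the ranking and named after its values were seen), 27.3% of the 11 lower in young and 12.5% of the 24 lower in aged mice. The median log2 ratio over all genes was -0.06 and -0.11, or -0.01 and 0.02 with median-of-ratios scaling.

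Pvalb, the calcium buffer of the early DCT, had genotype ratios of -1.39 (-1.47 to -1.32) and -1.70 (-1.80 to -1.59) in late DCT cells, and of -0.83 and -1.96 over cells with S100g at 100 CP10k or more. Its entries had been set to 0 by the background correction in 2.90, 20.7, 21.8 and 18.9% of late DCT cells. A Pvalb UMI was left in 83.8, 63.3, 60.9 and 32.6% of late DCT cells and in 12.3, 1.63, 0.976 and 0.0789% of Slc34a1 cells. The shares of late DCT cells after thinning were 69.9, 47.0, 43.5 and 16.9%, in the same order, and the part of the correction in this order was not tested. In early DCT cells Pvalb was nearer alike in the young libraries, at 3772 CPM in Tfeb fl/fl and 3169 CPM in KAP mice. A Pvalb UMI was found after thinning in 96.2, 94.3, 76.4 and 58.2% of early DCT cells. Abca13, a lipid transporter, stood at 748, 313, 1000 and 526 CPM, ratios of -1.26 (-1.36 to -1.16) and -0.93 (-0.996 to -0.86), past 2-fold in young mice only, and had been set to 0 in 0.242, 1.78, 0.806 and 2.28% of cells. In early DCT cells Abca13 stood at 1266, 797, 1639 and 897 CPM, again lower in each KAP library. Over cells with S100g at 100 CP10k or more its ratios were -0.91 and -0.89, past 2-fold at neither age. Gm42418, which overlaps ribosomal RNA, stood at 1354, 186, 3409 and 740 CPM, but the correction had set it to 0 in 0.242, 92.9, 24.2 and 78.5% of cells.

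**Figure D4:**
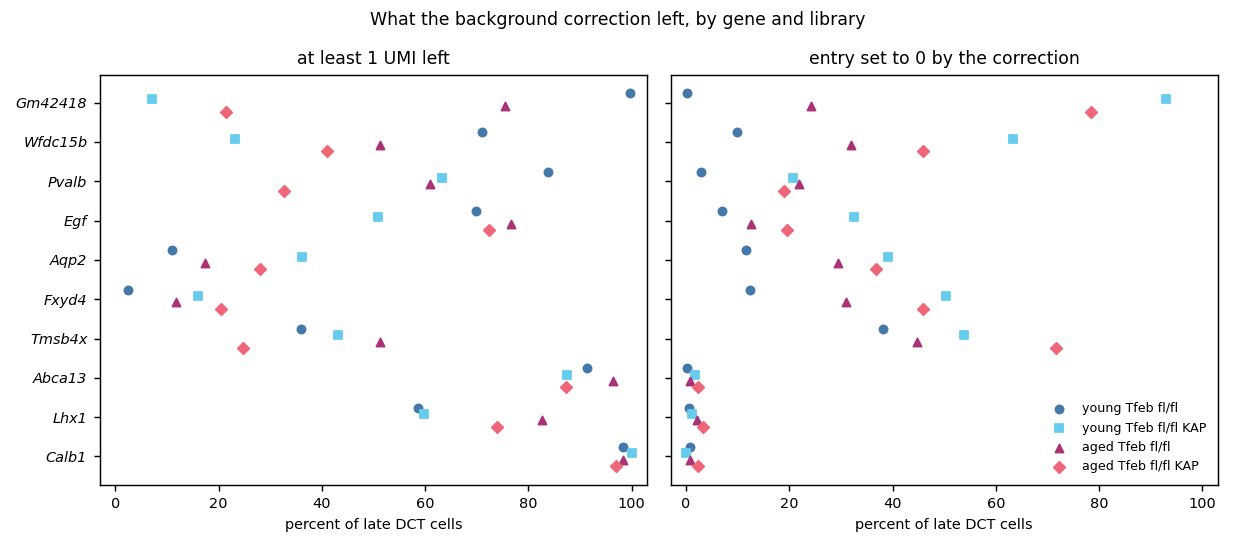
Share of late DCT cells in percent (horizontal axes) with at least 1 UMI left (left panel) and with an entry set to 0 by the background correction (right panel) for 10 genes, 1 point per library. Gm42418 was set to 0 in 92.9% of cells of the young KAP library and 0.242% of the young Tfeb fl/fl library, whereas Abca13, Lhx1 and Calb1 were set to 0 in at most 3.26% of the cells of any library.

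Other genes lower at both ages by the ranking rule were Hmgcs1, Rida, Gas1, Scg5, Abhd17c, BC005537, Pdcl3, Gadd45g and Hnrnph1. Hmgcs1, an enzyme of sterol synthesis, stood at 113, 65.2, 93.7 and 64.1 CPM (-0.79 and -0.55). Higher at both ages were Eif3l, mt-Nd4l, Hsd11b2, Rps29, Uqcc2, Bcat2, Ppdpf, Uqcrq, Atp5md, Bloc1s1 and Cryab, each by less than 2-fold in aged mice. Eif3l, a subunit of a translation initiation factor, stood at 87.1, 123, 116 and 160 CPM (0.50 and 0.46) and the mitochondrial mt-Nd4l at 1307, 1665, 2108 and 2704 CPM (0.35 and 0.36). Of the 77 nuclear oxidative phosphorylation subunits, 73 were higher with KAP in aged mice (median 0.13, none past 2-fold) and 34 in young KAP mice (median -0.01), beside 1402 of 5113 and 1875 of 4714 genes in all. In aged mice 0 of 5113 genes (0%) were past 2-fold higher.

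Genes of principal and intercalated cells, and some expressed more widely, were higher in the young KAP library. Fxyd4, a principal cell regulator of the sodium pump, stood at 23.9, 276, 42.0 and 42.6 CPM, Aqp2, the vasopressin-regulated water channel, at 61.4, 257, 59.99 and 56.1 CPM, and Tmsb4x, a widely expressed actin-binding peptide, at 194, 738, 259 and 173 CPM. Only the young KAP library was high for these genes. Of 11 connecting tubule and principal cell genes, 9 could be tested there, 8 were higher and 5 past 2-fold (median 1.39), and of 12 intercalated cell genes all 5 that could be tested were higher (median 1.03), beside 1875 of 4714 genes higher in all. Past 2-fold higher were 23 of 4714 genes (0.488%). The summed intercalated cell list stood at 444, 755, 525 and 424 CPM, with Atp6v1g3, a proton pump subunit, at 218 CPM in young KAP. With barcodes above 5 CP10k of Aqp2 left out, 8 genes were 2-fold higher in young KAP in place of 23. Egf, at 649, 267, 528 and 524 CPM, had a ratio of -1.28 over all late DCT cells and of -0.28 over those with S100g at 100 CP10k or more. Wfdc15b stood at 279, 62.6, 255 and 271 CPM and had been set to 0 in 9.90, 63.3, 31.9 and 45.9% of cells.

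**Figure D5:**
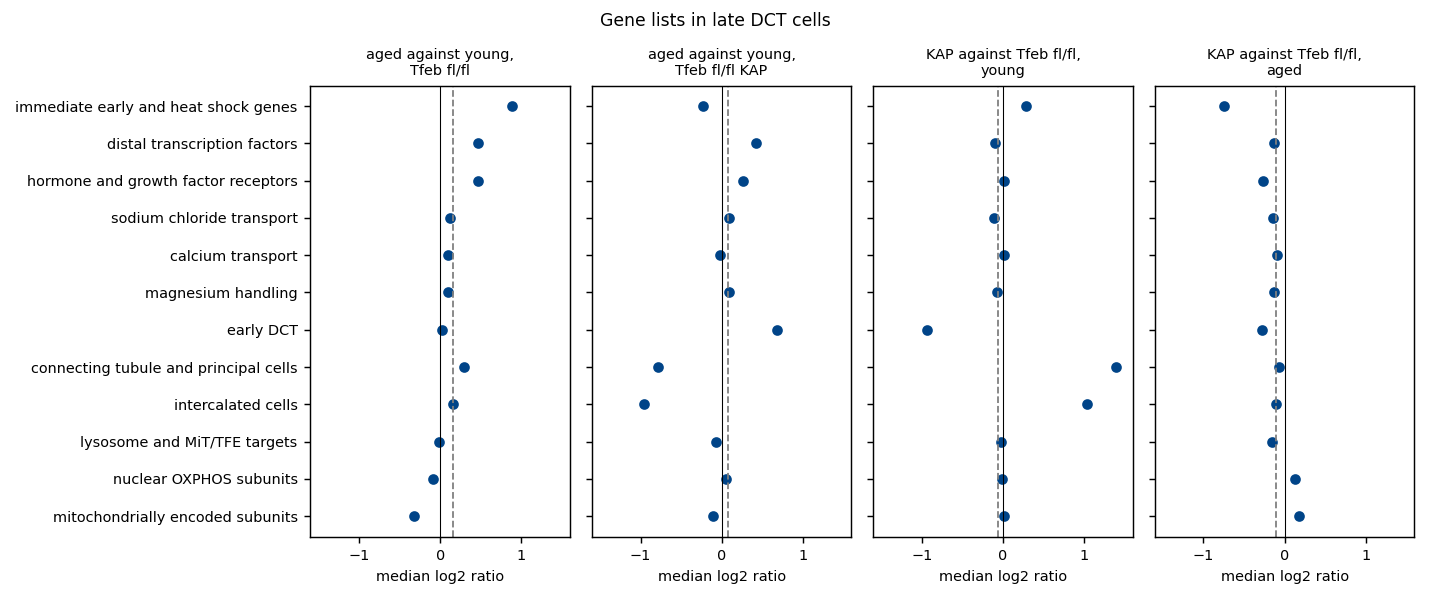
Median log2 ratio of CPM (horizontal axes) of 12 gene lists in late DCT cells, 1 panel for each comparison of libraries, with the median over all tested genes dashed. Immediate early genes stand at 0.89 for age in Tfeb fl/fl mice and at -0.75 for KAP in aged mice, distal transcription factors at 0.46 and 0.42 for age, and connecting tubule genes at 1.39 for KAP in young mice.

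Markers of cells outside the distal nephron were low. The summed leukocyte list (12 genes) stood at 5.26, 5.38, 40.6 and 29.7 CPM in late DCT cells, with S100a8 at 21.0 CPM in aged Tfeb fl/fl and Cd74 at 19.0 CPM in aged KAP as its most abundant genes, and 9, 8, 5 and 4 of its genes at 0. The endothelial list (8 genes) summed to 48.0, 32.3, 60.4 and 30.1 CPM, with Emcn the most abundant in each. The proximal tubule list (14 genes) summed to 360, 215, 497 and 268 CPM, with Gpx3 the most abundant at 145, 173, 375 and 242 CPM and 0, 4, 1 and 7 genes at 0. Kap, an abundant proximal tubule transcript, was at 40965, 36521, 40170 and 51135 CPM in Slc34a1 cells and at 117, 0, 23.3 and 0 CPM in late DCT cells, after the correction had set it to 0 in 87.9, 100, 99.2 and 100% of them. The thick limb list (8 genes) summed to 423, 301, 482 and 375 CPM, of which Umod, which the gate itself limited, made up 384, 270, 439 and 347 CPM. The part of these cells in the results above was not tested.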

How the data were processed

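Single-cell RNA-Seq was analysed in 4 libraries, 1 per condition. Gene-by-barcode UMI counts were deposited by the authors, who aligned reads to mm10 with Cell Ranger 6.0.0 and used Seurat 4.4.0 according to the submitters' processing notes, and corrected background RNA with SoupX. Listed entries at 0 were read as counts that the correction had set to 0; 718 of 5295 tested genes were so affected in at least 10% of late DCT cells of some library.

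Barcodes with at least 1000 genes and at most 50% mitochondrial UMIs were kept, gated on CP10k as described, and summed per library to CPM. Genes with a mean of at least 20 CPM and a UMI in each library were compared, and called at 2-fold. Named genes were the members of the lists and, at a mean of at least 50 CPM, the 12 in each direction with the largest weaker ratio over both pairs or all libraries and the 5 largest in each comparison; the gate genes and Atp6v1g3 were not ranked. Members and lists were chosen with earlier results of these data known. Intervals (exact binomial for ratios and shares, exact Poisson for levels) cover counting error only. Libraries held 194747936, 155327520, 125729484 and 135792884 UMIs in 16945, 12685, 8358 and 10097 barcodes, of which 11016, 8469, 5991 and 6931 were kept.

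Scrublet was run in scanpy 1.11.5 and figures were drawn with matplotlib 3.10.9, and all else was computed with pandas 2.3.3, scipy 1.17.1 and numpy 2.4.6 under Python 3.11.15. The calls were also tested on simulated data, and no result of that check is given here. Alternatives changed the gate, the mitochondrial limit, doublets, scaling, depth and expression minimum; limits of 100 CP10k of S100g and of genes set to 0 were chosen after seeing the data. Values of some listed genes are not reported here.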

Additional observations from a re-analysis of the deposited data

Results flagged for a closer look

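Some genes moved in opposite directions in the 2 comparisons of a kind, each between single libraries, so that the difference was not tested. For KAP against Tfeb fl/fl, log2 ratios in young and aged late DCT cells were 1.39 and -1.07 for Aqp3, 1.501 and -1.39 for Atf3, 1.48 and -1.18 for Car15, 1.22 and -0.62 for Car2, 1.24 and -0.47 for Cav1, 0.90 and -1.12 for Nr4a1, 0.28 and -1.49 for Socs3, and 1.93 and -0.58 for Tmsb4x. For aged against young, log2 ratios in Tfeb fl/fl and KAP mice were 1.63 and -1.27 for Atf3, 0.56 and -1.05 for Bhlhe40, 0.88 and -1.78 for Car15, 0.31 and -1.54 for Car2, 0.44 and -1.27 for Cav1, 0.81 and -2.70 for Fxyd4, 1.76 and -0.26 for Nr4a1, 0.42 and -2.09 for Tmsb4x, and -0.13 and 2.12 for Wfdc15b. The young KAP library enters both comparisons. Over cells with S100g at 100 CP10k or more, intervals of one of the ratios included 0 for Aqp3 by genotype in young mice (0.24, -0.11 to 0.59) and for age in Tfeb fl/fl mice for Car2 (0.12, -0.09 to 0.32), Cav1 (0.13, -0.26 to 0.52), Fxyd4 (0.10, -0.26 to 0.47) and Tmsb4x (0.03, -0.11 to 0.17), so that the opposite direction was not seen there.

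Barcodes with more than 50% mitochondrial UMIs were outside the comparisons, and 51, 19, 18 and 24 of them passed the 4 expression limits of the late DCT gate.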

How the results depend on the processing

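With 1 library per condition no replicate could be left out. No paired analysis was possible because each condition had 1 library and the labels give no replicate numbers. The counts of 2-fold genes depended on the settings. They are given as higher and lower with age in Tfeb fl/fl (60 and 18) and in KAP (30 and 42), higher and lower for genotype in young (23 and 14) and aged mice (0 and 29), both age pairs higher and lower (11 and 7), both genotype pairs higher and lower (0 and 3), late against early DCT higher and lower (35 and 58) and late DCT against S100g cells low in Slc12a3 higher and lower (54 and 153). Removing high Scrublet scores moved none of them by over 1.5 times. With Aqp2 below 5 CP10k, 24 were lower with age in KAP, 8 higher and 19 lower for genotype in young and aged mice. With S100g at least 100 CP10k, genotype gave 8 higher and 6 lower in young and 1 higher in aged mice, 3 were lower with age and 1 for genotype in both pairs, 95 were lower than in early DCT, and shares were 2.52% in young Tfeb fl/fl, 3.17% in aged Tfeb fl/fl and 3.49% in aged KAP. With S100g at least 20 and Slc12a3 at least 10 CP10k, 25 were lower with age in KAP, 8 higher for genotype in young mice and 4 lower with age in both pairs, and the young Tfeb fl/fl share was 3.08%. With at most 20% mitochondrial UMIs, which left 117, 30, 72 and 64 late DCT cells, age gave 91 and 96 in Tfeb fl/fl and 186 and 270 in KAP, genotype 201 and 161 in young and 15 and 53 in aged mice, 22 were lower with age and 3 higher for genotype in both pairs, 36 were lower than in early DCT, 82 and 85 differed from S100g cells low in Slc12a3, and shares were 2.13, 0.688, 2.22 and 1.59%. Without genes often set to 0, 9 and 19 were lower with age, genotype gave 9 and 5 in young and 13 lower in aged mice, and both pairs gave 7 and 2 for age and 0 lower for genotype. With the mean of CPM over cells, 26 were lower for genotype in young, 1 higher in aged mice and 1 higher in both. With median-of-ratios scaling, age gave 24 and 35 in Tfeb fl/fl, genotype 1 and 18 in aged mice, 7 were higher with age in both pairs, and 95 and 94 differed from S100g cells low in Slc12a3. With a minimum mean of 50 CPM, age gave 21 and 8 in Tfeb fl/fl and 8 and 16 in KAP, genotype 10 and 6 in young and 14 lower in aged mice, both age pairs 5 and 2, late against early DCT 18 and 24, and against S100g cells low in Slc12a3 26 and 75. With no minimum, these became 1463 and 603, 1127 and 754, 656 and 884, 480 and 988 for the 4 comparisons, 298 and 130 for both age and 55 and 139 for both genotype pairs, 149 and 538 against early DCT and 222 and 614 against S100g cells low in Slc12a3. Thinned to 2000 UMIs per cell, age gave 234 and 97, and 302 and 136, genotype 104 and 232, and 53 and 170, both age pairs 32 higher, and both genotype pairs 4 and 10. Without mitochondrial genes in the total, 28 were lower with age in Tfeb fl/fl and 11 in both pairs. Of 216 ratios of named genes, 136 kept their sign under every setting run, as did 33 of 86 list medians. The cause of these shifts was not tested.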

Other observations

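Antigen presentation and interferon genes were low in late DCT cells, with 7 and 6 of 32 tested for age and medians of 0.81 in Tfeb fl/fl and 0.38 in KAP mice, beside 0.15 and 0.08 over all genes. H2-K1, a class I heavy chain, stood at 132, 138, 222 and 184 CPM, and B2m, its light chain, at 21.7, 14.9, 55.2 and 33.5 CPM. The leukocyte marker sum was also higher in the aged libraries (5.26, 5.38, 40.6 and 29.7 CPM), and its part in these values was not tested. Tight junction genes had age medians of 0.39 and 0.28 and hormone receptor genes of 0.46 and 0.26, whereas fatty acid degradation genes stood at 0.15 and 0.13, the level of all genes. Of the 13 mitochondrially encoded subunits, 10 were lower and 3 higher with age in Tfeb fl/fl mice (median -0.33) and 8 lower and 5 higher in KAP mice (median -0.10). Beside this, 1622 of 5039 and 1801 of 4814 genes were lower in all. As a near restatement of the mitochondrial share (median 29.3, 31.6, 24.3 and 28.3%), the subunits summed to 293203, 292206, 241072 and 271229 CPM. Among them, mt-Nd1 stood at 14884, 15134, 8556 and 10376 CPM and mt-Nd4l at 1307, 1665, 2108 and 2704 CPM, in opposite order by age.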
